A study of Homo sapiens with 6 samples.

Results

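The genes described here carry out the breakdown of the branched-chain amino acids leucine, isoleucine and valine. The list holds 31 genes chosen by their textbook role in the pathway, and all 31 were measured, with 81 probe sets, among 18239 genes on the arrays. MCCC2 was selected on its values in the comparison reported below and set against the other 30 members, so its values, and the calls of the other members in that comparison, are given as a description. The RNA came from LNCaP, an established human prostate adenocarcinoma line that responds to androgen, and was measured on 6 Affymetrix U219 arrays. For 3 arrays the cells had been kept with 40 µM urolithin A, a compound that gut bacteria make from dietary ellagitannins, for 24 h. For the other 3 arrays the cells were untreated by their titles, while saline is named in the treatment protocol. The labels give no solvent for urolithin A. F12 medium with fetal bovine serum was used for both groups, and the results concern a single cell line.

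Each deposited value is a log2 value from which the median of the 3 untreated arrays has been subtracted, so 0 means equal to that median. A difference between arrays can be read from such values, but the level of a transcript cannot, and no gene can be called abundant or scarce. A gene's value on an array is the mean of its probe sets. A gene is said to have passed where limma's moderated test over all 18239 genes gave a Benjamini-Hochberg adjusted p under 0.05, and only such genes are said to have risen or fallen. Nothing in the labels ties the 3 arrays of a group to independent cultures, so the calls rest on a spread between arrays that may be technical. The number of arrays limits the precision.

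Breakdown begins when a branched-chain aminotransferase moves the amino group to 2-oxoglutarate, and the resulting ketoacids are then oxidised by the mitochondrial branched-chain ketoacid dehydrogenase complex in a step that cannot be reversed. From there the routes divide. Leucine carbon passes through isovaleryl-CoA and 3-methylcrotonyl-CoA to HMG-CoA and acetoacetate, whereas valine and part of isoleucine end as propionyl-CoA. Both 3-methylcrotonyl-CoA and propionyl-CoA are carboxylated by biotin enzymes of the mitochondrial matrix, built from an alpha subunit that carries biotin and a beta subunit that transfers the carboxyl group. MCCC1 and MCCC2 code for the alpha and beta subunits of 3-methylcrotonyl-CoA carboxylase, and PCCA and PCCB for those of propionyl-CoA carboxylase.

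The subunits of 3-methylcrotonyl-CoA carboxylase come from genes on different chromosomes, and the 250 bases before a listed transcript start are shown for both because MCCC2 fell and MCCC1 did not pass. The sequences are from RefSeq (GRCh38.p14), at chr5:71587090-71587339 on the plus strand for MCCC2, the only start listed, and at chr3:183099497-183099746 on the minus strand for MCCC1, the first of 3 listed starts. Capitals mark matches to CCAAT and CACGTG on either strand, which do not overlap each other.
MCCC2: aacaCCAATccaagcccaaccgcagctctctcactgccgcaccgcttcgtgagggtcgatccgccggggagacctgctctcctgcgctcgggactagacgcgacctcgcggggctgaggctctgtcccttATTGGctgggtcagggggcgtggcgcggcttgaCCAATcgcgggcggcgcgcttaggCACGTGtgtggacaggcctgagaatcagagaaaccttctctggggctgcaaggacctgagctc
MCCC1: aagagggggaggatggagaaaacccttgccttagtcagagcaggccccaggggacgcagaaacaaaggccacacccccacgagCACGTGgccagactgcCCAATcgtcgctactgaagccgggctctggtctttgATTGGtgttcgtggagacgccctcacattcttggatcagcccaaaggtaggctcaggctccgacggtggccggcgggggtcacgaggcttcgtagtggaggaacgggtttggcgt
The MCCC2 window held 3 matches to CCAAT and 1 to CACGTG, and the MCCC1 window held 2 and 1. Of 35116 windows of this length listed for all genes, 32% held CCAAT and 6.34% held CACGTG. Neither window held AGAACA, the half-site of the androgen response element, on either strand, whereas 12.4% of all windows did. Among the first listed windows of 28 members, 13 held CCAAT, 3 held CACGTG and 0 held AGAACA. These matches describe the letters of the windows; no binding was measured.

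The RNA of MCCC2, the carboxyl-transferring subunit gene, was 3.02-fold lower in urolithin A cells. Its log2 values were -1.62, -1.41 and -1.76 on urolithin A replicates 1, 2 and 3, against 0.016, -0.085 and 0.060 on untreated replicates 1, 2 and 3. All urolithin A arrays lay below all untreated arrays, and the gap between the groups was wider than the range within either. The means were -1.60 ± 0.17 in urolithin A cells and -0.0031 ± 0.074 in untreated cells (SD, n = 3 each), a log2 change of -1.60 (SE 0.095). This was the 18th lowest change of all 18239 genes and the lowest of the members. In bulk RNA a loss of cells that express a gene and less of its RNA per cell cannot be told apart.

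The other members lay much closer to their untreated values. Of all 31 members, 2 fell (MCCC2 and OXCT1), 1 rose (ALDH3A2) and 28 did not pass. Over all genes 5.31% were called lower and 4.85% higher, and as MCCC2 was picked from this comparison, nothing is read from the members' counts. Among the 30 members other than MCCC2 the median log2 change was -0.019, with the middle of the distribution between -0.061 and 0.11 (quartiles), beside a median of 0.010 and quartiles of -0.089 and 0.11 over all genes. Their changes ranged from -0.40 to 0.41, and 15 of the 30 were smaller than 0.1 in size, against 50.1% of all genes. The array medians of these 30 genes were 0.0030, 0.026 and -0.00062 on the urolithin A arrays and 0 on each untreated array.

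**Figure D1:**
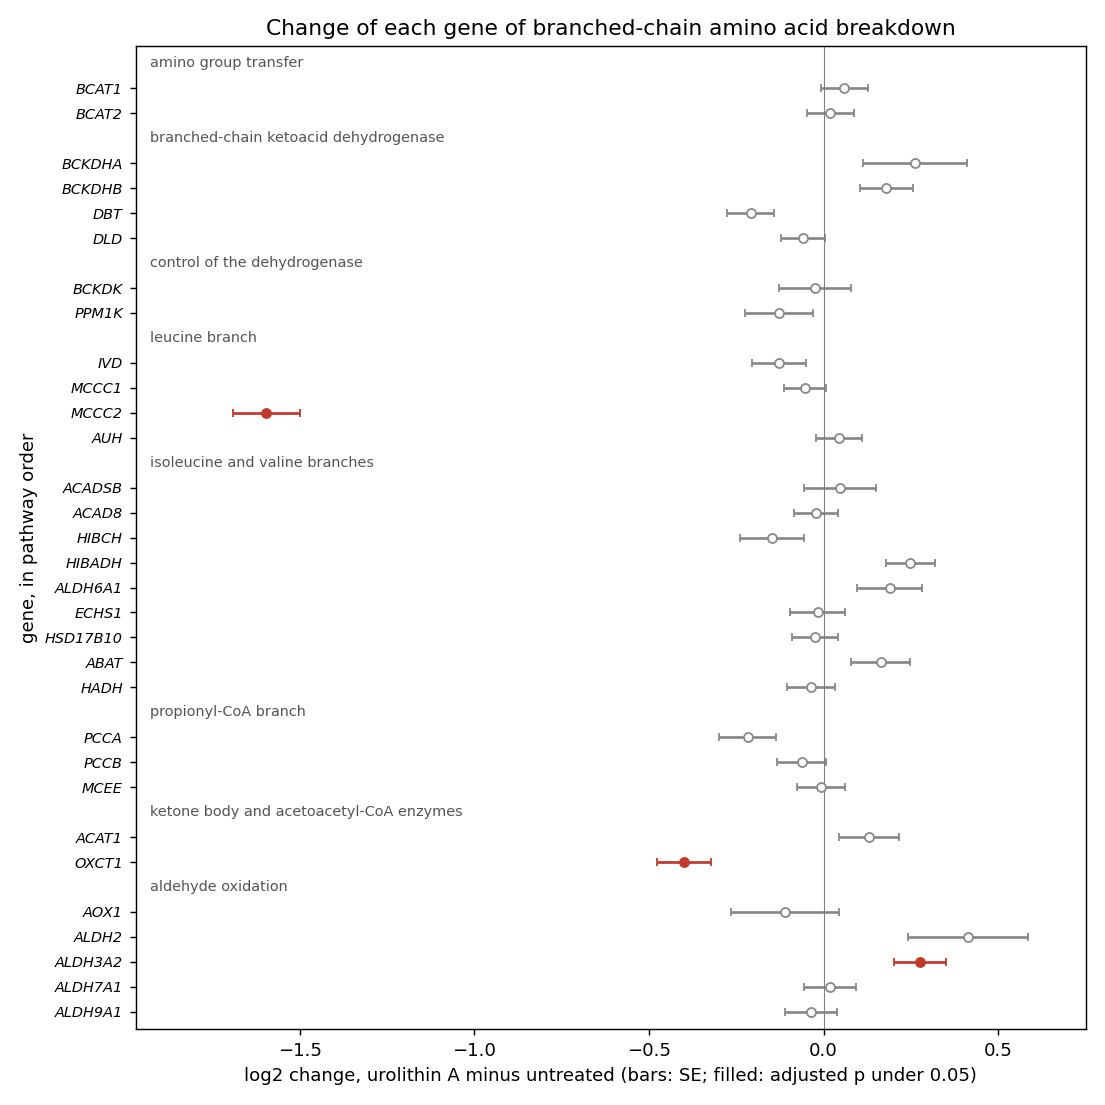
Log2 change (urolithin A minus untreated, horizontal axis) of each of the 31 genes, in pathway order down the page, with bars for the SE and filled points for genes that passed. MCCC2 lies at -1.60, while the other members lie between -0.40 and 0.41.

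Whether the groups separated was also counted without a test. All urolithin A arrays lay below all untreated arrays for 3 members (MCCC2, OXCT1 and DBT) and above them for 3 (BCKDHB, HIBADH and ALDH3A2), and the groups overlapped for 25. Of all genes, 13.7% separated downwards and 15.6% upwards.

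Neither aminotransferase gene passed. BCAT1, the cytosolic form, had a log2 change of 0.060 (SE 0.067), and BCAT2, the mitochondrial form, 0.020 (SE 0.067). Both groups overlapped for both genes.

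None of the 4 genes of the ketoacid dehydrogenase complex passed, and they did not share a direction. BCKDHA, the E1 alpha subunit, was among the 3 largest changes that did not pass. Its values were 0.19, 0.36 and 0.11 on the urolithin A arrays, against 0.25, -0.38 and 0 on the untreated arrays. The untreated arrays were spread more widely than the urolithin A arrays and enclosed 2 of them, for a log2 change of 0.26 (SE 0.15). It was 0.091 without untreated replicate 2 and 0.41 without untreated replicate 1. BCKDHB, the E1 beta subunit, had values of 0.29, 0.18 and 0.11 with urolithin A, against 0.098, -0.047 and -0.0037 untreated, a narrow separation with a log2 change of 0.18 (SE 0.075). DBT, the E2 transacylase core, had a log2 change of -0.21 (SE 0.067), and DLD, the E3 subunit shared with pyruvate dehydrogenase, -0.058 (SE 0.063). The pair of genes that switch the complex also did not pass: BCKDK, the kinase that inactivates it, had a log2 change of -0.025 (SE 0.10), and PPM1K, the phosphatase that reactivates it, -0.13 (SE 0.097).

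Within the leucine branch only MCCC2 passed. MCCC1, its biotin-carrying partner, had values of -0.0012, -0.053 and -0.070 on the urolithin A arrays, against 0.0026, 0.040 and -0.0072 on the untreated arrays. The groups overlapped, and the log2 change was -0.053 (SE 0.061). Taken on each array, MCCC2 minus MCCC1 was -1.62, -1.36 and -1.69 with urolithin A, against 0.013, -0.13 and 0.067 untreated. The log2 change of MCCC2 minus that of MCCC1 was -1.54. IVD, the isovaleryl-CoA dehydrogenase that acts just before the carboxylase, had a log2 change of -0.13 (SE 0.077), and AUH, the hydratase that acts just after it, 0.044 (SE 0.066). The 2 probe sets of IVD differed, with log2 changes of 0.099 and -0.35. Neither passed when tested singly, although the arrays of the second separated.

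For propionyl-CoA carboxylase neither subunit gene passed. PCCA, its biotin-carrying subunit, had values of -0.33, -0.27 and -0.10 on the urolithin A arrays, against 0.0065, -0.10 and 0.040 on the untreated arrays. Urolithin A replicate 3 lay just above untreated replicate 2, so the groups overlapped, and the log2 change of -0.22 (SE 0.082) did not pass. PCCB, the counterpart of MCCC2, had values of -0.12, 0.024 and -0.0054 with urolithin A, against 0, -0.012 and 0.099 untreated. These overlapped, with a log2 change of -0.062 (SE 0.070). The log2 change of PCCB minus that of PCCA was 0.16. MCEE, the epimerase that follows this carboxylase, had a log2 change of -0.0068 (SE 0.069).

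**Figure D2:**
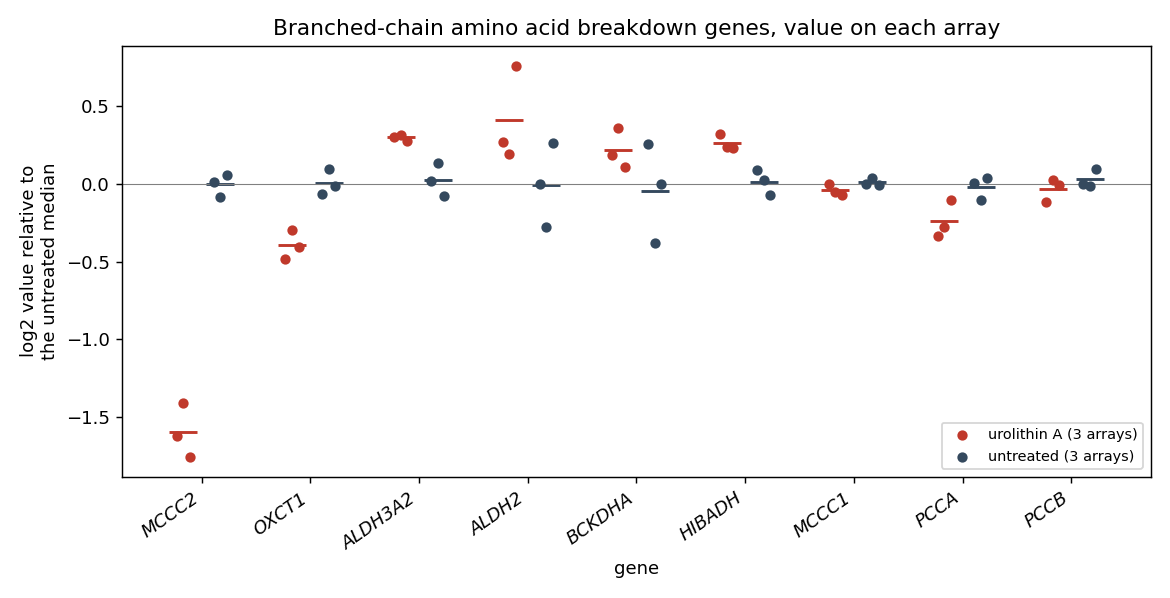
Log2 value relative to the untreated median (vertical axis) on each of the 3 urolithin A arrays (left of each pair) and 3 untreated arrays (right), with bars at the means, for the members given array by array. The urolithin A arrays of MCCC2 lie between -1.76 and -1.41, while those of MCCC1 lie between -0.070 and -0.0012.

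Of the 9 members of the isoleucine and valine branches none passed, with a median log2 change of -0.017. HIBADH, the hydroxyisobutyrate dehydrogenase of the valine branch, was the member of this group whose arrays separated, and was among the 3 largest changes that did not pass. Its values were 0.32, 0.24 and 0.23 on the urolithin A arrays, against 0.093, 0.024 and -0.070 on the untreated arrays. All urolithin A arrays were higher, with a log2 change of 0.25 (SE 0.070). HIBCH, the hydrolase one step before it, had a log2 change of -0.15 (SE 0.091), and ALDH6A1, the methylmalonate semialdehyde dehydrogenase after it, 0.19 (SE 0.092); neither gene's groups separated. ABAT, a transaminase best known for degrading GABA, had a log2 change of 0.16 (SE 0.084). The remaining 5 were the short branched-chain and isobutyryl-CoA dehydrogenase genes ACADSB and ACAD8, the enoyl-CoA hydratase gene ECHS1, and the hydroxyacyl-CoA dehydrogenase genes HSD17B10 and HADH. Their changes lay between -0.037 for HADH and 0.047 for ACADSB.

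OXCT1, which codes for the transferase that activates acetoacetate for use as fuel, was the other member that fell, by 1.32-fold. Its values were -0.48, -0.30 and -0.40 on the urolithin A arrays, against -0.064, 0.096 and -0.015 on the untreated arrays. The groups did not overlap, and the log2 change was -0.40 (SE 0.077), against -1.60 for MCCC2. The call ended without untreated replicate 2, where the log2 change was -0.35, and when the median of its probe sets replaced their mean, where it was -0.22. ACAT1, the mitochondrial thiolase that splits acetoacetyl-CoA, had a log2 change of 0.13 (SE 0.085) with overlapping groups.

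Among 5 aldehyde-oxidising enzymes, ALDH3A2, the fatty aldehyde dehydrogenase, rose 1.21-fold. Its values were 0.30, 0.32 and 0.28 on the urolithin A arrays, against 0.016, 0.14 and -0.080 on the untreated arrays, which did not overlap. The log2 change was 0.28 (SE 0.073), and the call was kept without untreated replicate 2 but lost without any other single array, with log2 changes of 0.22 to 0.33 over the 6 fits. With the median of its probe sets ALDH3A2 had a log2 change of 0.49 and passed. ALDH2, the mitochondrial aldehyde dehydrogenase, had a change next in size to that of MCCC2 over all 6 arrays but did not pass. Its values were 0.27, 0.19 and 0.76 on the urolithin A arrays, against 0, -0.28 and 0.26 on the untreated arrays. The arrays of both groups were widely spread and overlapped, and replicate 3 was the highest in each, for a log2 change of 0.41 (SE 0.17). It was 0.24 without urolithin A replicate 3 and 0.28 without untreated replicate 2, both smaller in size than the change of OXCT1. The aldehyde oxidase gene AOX1 had a log2 change of -0.11 (SE 0.16), the lysine-pathway enzyme gene ALDH7A1 0.018 (SE 0.074) and ALDH9A1, whose enzyme oxidises aminoaldehydes, -0.035 (SE 0.074).

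A gene's mean can hide probe sets that differ, so the 81 probe sets of the members were also tested singly. Of these, 5 fell and 4 rose, while of all 49293 probe sets tested alone 4.4% were called lower and 4.01% higher. No probe set listed with several symbols named a member. Both probe sets of MCCC2 fell. The first had values of -1.12, -1.05 and -1.47 on the urolithin A arrays, against 0.032, -0.16 and 0 untreated, and the second -2.13, -1.78 and -2.05, against 0, -0.013 and 0.12. Their log2 changes were -1.17 (SE 0.12) and -2.02 (SE 0.11), so the fall was 2.25-fold or 4.06-fold depending on the probe set.

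For OXCT1 and ALDH3A2 the call rested on part of the probe sets. The third probe set of OXCT1 fell by 0.86 on the log2 scale (SE 0.11), while neither of the other 2 passed, at -0.13 and -0.20. The first probe set of ALDH3A2 rose, with a log2 change of 0.51 (SE 0.088), the second had 0.37 (SE 0.11) without passing, and the last had -0.058 (SE 0.092).

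DBT and ABAT, singled out here after their values were seen, held probe sets with log2 changes of opposite sign. Of 6 probe sets of DBT, the fourth had values of -0.68, -0.77 and -0.44 on the urolithin A arrays, against 0.0071, -0.058 and 0 untreated. The fifth had -0.56, -0.57 and -0.56, against -0.19, 0 and 0.069. Both fell, with log2 changes of -0.61 and -0.52. The third, whose name marks sequence shared between transcripts, had values of 0.55, 0.41 and 0.65 with urolithin A, against 0.0068, -0.051 and 0 untreated, and rose with a log2 change of 0.55 (SE 0.091). The other 3 had log2 changes between -0.38 and -0.11 that did not pass, and with the median of the 6 in place of their mean DBT passed as lower. For ABAT the first probe set rose, at 0.76, 0.70 and 0.58 on the urolithin A arrays, against 0.025, 0 and -0.045 untreated, a log2 change of 0.69 (SE 0.087). Its second had a log2 change of -0.36 (SE 0.14) that did not pass, although its arrays also separated. For DLD, 1 of 7 probe sets rose, with a log2 change of 0.32 (SE 0.082), and the others lay between -0.15 and -0.085. Which transcripts these probe sets detect was not examined.

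**Figure D3:**
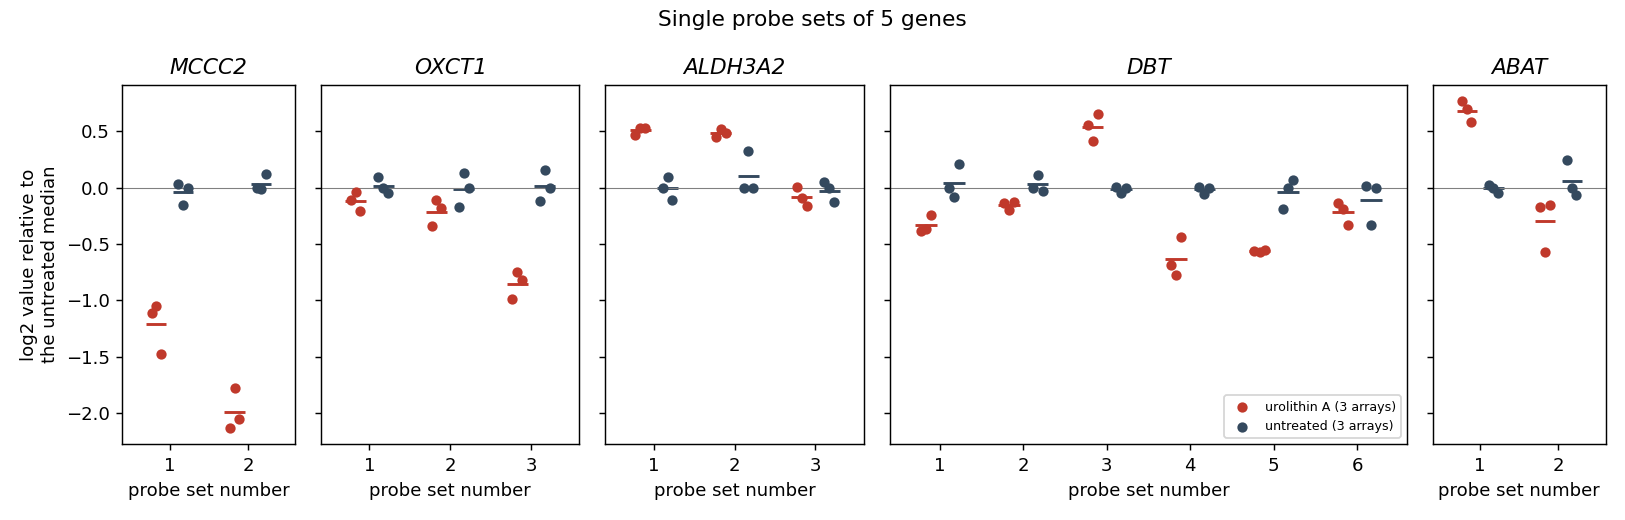
Log2 value relative to the untreated median (vertical axis) for each probe set, numbered within its gene, on 3 urolithin A arrays (left of each pair) and 3 untreated arrays (right), with bars at the means. Both probe sets of MCCC2 were lower with urolithin A, whereas probe set 3 of DBT lay above 0 and probe sets 4 and 5 below.

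Of 43 measured genes around the pathway, 8 fell and 3 rose, beside 5.31% of all genes called lower and 4.85% called higher. The lists were chosen by role with earlier results of these data known, so nothing is read from these counts. Genes of biotin supply and other biotin carboxylases gave 3 of the 8 falls among 6 measured, with a median log2 change of -0.17. Biotin is the cofactor of MCCC1 and PCCA. BTD, the biotinidase that recycles biotin, was measured by 1 probe set. Its values were -1.03, -0.70 and -0.40 on the urolithin A arrays, against 0.12, -0.11 and 0 on the untreated arrays. This was a fall of 1.64-fold (adjusted p = 0.0177). The biotin carrier gene SLC5A6 fell 1.36-fold (adjusted p = 0.0379) and ACACA, the cytosolic biotin carboxylase of fatty acid synthesis, 1.35-fold (adjusted p = 0.0349). HLCS, the ligase that attaches biotin to the carboxylases, had a log2 change of 0.31 without passing (adjusted p = 0.124). The call of BTD was lost without urolithin A replicate 2 or untreated replicate 1 or 3, with log2 changes of -0.87 to -0.55 over the 6 fits without an array. That of SLC5A6 was kept only without urolithin A replicate 2, with log2 changes of -0.56 to -0.36, and that of ACACA only without urolithin A replicate 3, with -0.48 to -0.33. ACACA also lost its call, at a log2 change of -0.25, when the median of its probe sets was taken.

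Enzymes of fatty acid oxidation, listed here as shared with the pathway, gave the 3 rises, among 7 measured, with a median log2 change of 0.13. EHHADH, the peroxisomal bifunctional enzyme, had values of 1.18, 1.00 and 0.60 on the urolithin A arrays, against -0.021, -0.19 and 0.10 on the untreated arrays. It rose 1.95-fold (adjusted p = 0.00499). The call held without each single array but was lost when the test was not moderated. The peroxisomal thiolase gene ACAA1 rose 1.26-fold (adjusted p = 0.0211), a call kept only without urolithin A replicate 1 or 3, with log2 changes of 0.28 to 0.37. The call of ACAA1 was also lost without probe sets marked as shared, where its log2 change was 0.16. HADHA, the alpha subunit of the mitochondrial trifunctional protein, rose 1.21-fold (adjusted p = 0.0267), a call lost without any single array, with log2 changes of 0.25 to 0.28 over the 6 fits. It was also lost, at 0.15, without probe sets marked as shared or as covering several transcripts. In the list of acyl-CoA and ketone body enzymes shared with other pathways, 2 of 4 measured genes fell. These were HMGCS1, by 1.33-fold, and ACAT2, by 1.26-fold (adjusted p = 0.0164 and 0.0205). HMGCS1 lost its call without urolithin A replicate 1 or untreated replicate 3 (log2 changes of -0.45 to -0.35 over the 6 fits), and ACAT2 without any array but urolithin A replicate 2 (-0.39 to -0.30). None of the 7 genes listed for the propionate and methylmalonate tail passed, nor did any of 3 other listed enzymes of the pathway.

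Of 6 carriers that bring branched-chain amino acids into the cell or the mitochondrion, only SLC43A1, a facilitated carrier of the plasma membrane, passed. Its values were -0.71, -0.48 and -0.32 on the urolithin A arrays, against 0, -0.061 and 0.32 on the untreated arrays, a log2 change of -0.59 (SE 0.13, adjusted p = 0.0219). SLC7A5, the main large neutral amino acid exchanger, had a log2 change of -0.012 (adjusted p = 0.958). Of 2 measured regulators of the pathway, 1 fell. KLF15, a transcription factor known in mice to drive branched-chain amino acid breakdown genes, had values of -0.82, -0.95 and -0.45 on the urolithin A arrays, against 0, -0.35 and 0.11 on the untreated arrays, and fell 1.58-fold (adjusted p = 0.0286). PPARGC1A, a transcriptional coactivator of mitochondrial genes, had a log2 change of -0.061 (adjusted p = 0.751). SLC43A1 and KLF15 were each measured by 1 probe set. Their calls were both lost without urolithin A replicate 1 or 2 or untreated replicate 1 or 3. The log2 changes without single arrays were -0.68 to -0.47 for SLC43A1 and -0.80 to -0.56 for KLF15. Of 8 genes of the related pyruvate and 2-oxoglutarate dehydrogenase complexes and of lipoylation, 1 fell. This was DLAT, the transacylase core of pyruvate dehydrogenase and the counterpart of DBT, at 1.34-fold lower (adjusted p = 0.00678), a call that held without each single array. Without the probe sets whose names mark several transcripts or shared sequence, DLAT had a log2 change of -0.054.

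**Figure D4:**
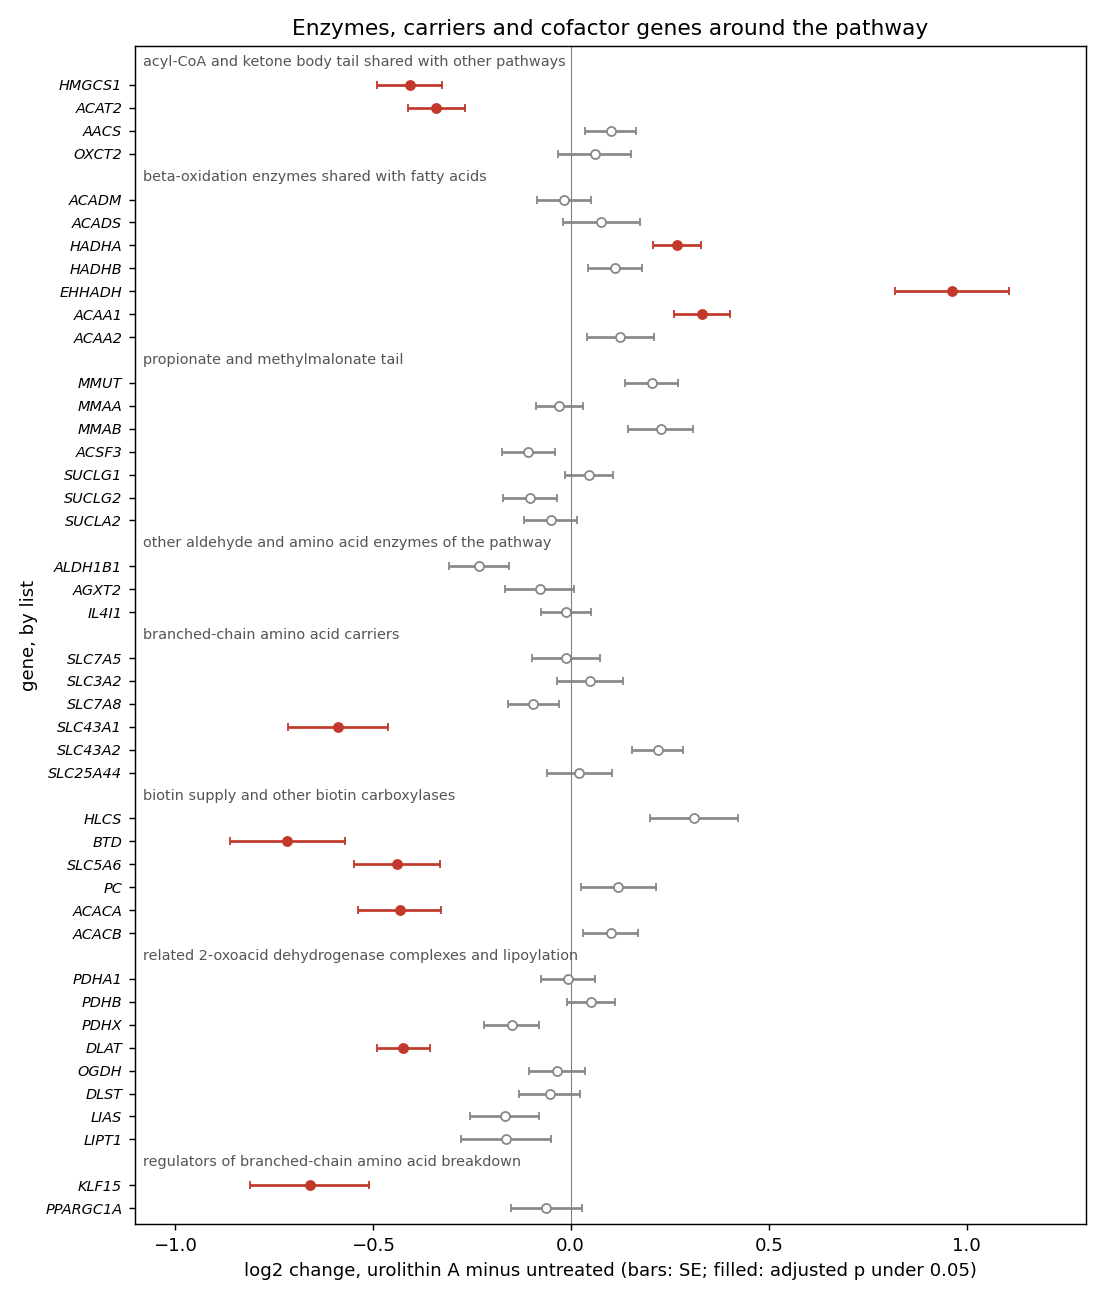
Log2 change (urolithin A minus untreated, horizontal axis) of 43 measured genes around the pathway, grouped by list down the page, with bars for the SE and filled points for genes that passed. EHHADH lies furthest to the right at 0.96 and BTD furthest to the left at -0.71.

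No array was identical to another, and their medians over all probe sets lay between -0.0013 and 0.014 with urolithin A and at 0 untreated. Of 6 fixed markers of prostate luminal cells 4 were measured, and since levels were subtracted, the cell type could not be checked by them. Of these 4, KLK3, the gene of prostate-specific antigen, fell 1.97-fold (adjusted p = 0.00101), FOLH1, which codes for prostate-specific membrane antigen, rose 1.24-fold (adjusted p = 0.0202), and 2 did not pass. Of 7 measured markers of other cell types, 1 passed: VIM, the vimentin gene, rose 1.48-fold (adjusted p = 0.0461). The mean of these 7 was 0.14 to 0.19 on the urolithin A arrays and -0.0053 to 0.054 on the untreated arrays. The median of their log2 changes was 0.057. PTPRC had a log2 change of 0.28 without passing, and those other than VIM and PTPRC lay between -0.072 and 0.072. The part of these markers in the values above was not tested.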

How the data were processed

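The authors deposited log2 values of 49386 probe sets on 6 Affymetrix U219 arrays. The submitters' processing notes name RMA without a version. The untreated median was exactly 0 for each of the 49386 probe sets. No source states the log base, which was taken as 2, the scale of RMA. Probe sets were named through the platform's annotation; 45253 had a single symbol, 1327 had several and were left out, and 93 control probe sets were left out.

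Gene values were means of probe sets. Limma 3.58.1 (R 4.3.3) compared the groups with lmFit and eBayes in a two-sided moderated test without covariates, with Benjamini-Hochberg adjustment over 18239 genes and a threshold of 0.05. Single probe sets were fitted likewise over 49293. The fit was tested on simulated data. Sample titles gave groups and replicate numbers. Alternatives were a replicate block, the median of probe sets, 2 filters on probe set names (1 chosen after the data were seen), median centring, a trended robust prior, array weights, no moderation, a threshold of 0.01, a fold minimum of 1.5 and each array left out.

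The members and lists were chosen with earlier results of these data known. Values per array are given for MCCC2, members that passed, the 3 largest changes that did not pass, MCCC1, PCCA and PCCB, by a written rule; BCKDHB, DBT and ABAT were added after their values were seen. From the other lists, genes that passed are named, with HLCS, SLC7A5 and PPARGC1A added. Values per array are given there for BTD, EHHADH, SLC43A1 and KLF15, which had the largest changes around the pathway. That choice was outside the written rule. Protein sequences were not used here.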

Additional observations from a re-analysis of the deposited data

How the results depend on the processing

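MCCC2 stayed lower and passed under all 16 alternatives, with log2 changes of -1.69 to -1.17. As MCCC2 was selected on these same values, this is a description and no support. Some alternatives could not move its log2 change. With 2 probe sets the median equals the mean, and neither was marked as shared. The count of members called lower was 2, and 1 with no moderation, at a threshold of 0.01, with a fold minimum of 1.5 and without the probe sets marked as shared or as covering several transcripts, a filter that left 12 of the 31 members; it was 3 without probe sets marked as shared alone, where DBT joined MCCC2 and OXCT1, and 1 to 2 without single arrays. The count called higher was 1, and 0 under each of those 4 settings, with arrays centred on their median, with a trended robust prior, with array weights and without shared probe sets alone; without single arrays it was 0 to 1. The genes behind a count could change: with the median of probe sets the 2 lower members were DBT and MCCC2. The median log2 change of the other 30 members, -0.019, was -0.037 to 0.012 without single arrays. Under the 2 filters on probe set names it was 0.099 and 0.011, over fewer genes, as the filters left 12 and 29 of the 31 members. Of the genes around the pathway, 8 fell and 3 rose. With no moderation 1 fell and 1 rose, and the same counts held at a threshold of 0.01. The gene that rose was HADHA with no moderation, where EHHADH lost its call, and EHHADH at 0.01. With the fold minimum 3 fell and 1 rose, and without single arrays 1 to 6 fell and 1 to 2 rose. Under the stricter name filter 1 fell. This filter left no probe set for HMGCS1, ACAT2, SLC43A1, BTD, SLC5A6 and ACACA, which fell in the main fit. Nor did it leave any for ACAA1, which rose there. Beyond the genes that the name filters removed, the cause of these shifts was not tested.

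With the replicate number as a block, 2 members were lower (MCCC2 and OXCT1) and 1 higher, which was ALDH2 in place of ALDH3A2; around the pathway 7 genes fell and 3 rose, and SLC5A6 lost its call, as it did with a trended robust prior. Deviations of same-numbered arrays correlated at 0.0782, 0.0225 and 0.196 for replicates 1, 2 and 3. Arrays with different numbers were not compared in this way, so these values do not settle whether same-numbered arrays were paired. The main fit used no pairing.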
